A study of Mus musculus with 12 samples.

Results

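The GABA-A receptor subunit genes Gabra2, Gabra3, Gabra4, Gabra5, Gabrb1, Gabrb2, Gabrg1 and Gabrg3 were followed in primary cells of the mouse cerebral cortex grown in the presence or absence of the active thyroid hormone, triiodothyronine (T3). They are 8 of the 14801 genes in the deposited table, and they were picked by name with their T3 contrast already known. Their differences between cultures with and without T3 are therefore given as a description, without a test of their own. RNA was sequenced from 6 cultures given 10 nM T3 for 24 h and from 6 cultures without T3 kept in parallel. The cortices of each of 6 fetuses, called mouse 1 to mouse 6 here, supplied 1 culture of each kind. Every library is titled WT (wild type). The cortices came from fetuses of gestational day 17.5 and were dissociated and kept in culture for 9 days. In both groups the B27 supplement was then left out for 24 h before the time of T3 addition. All cells of a culture were harvested together, so a level is the mean over neurons and glia, and fewer cells of a type and less RNA per cell cannot be told apart. The titles of the libraries were checked against Hr, a corepressor gene and direct T3 target. Hr had 46.5 ± 2.92 CPM with T3 and 5.49 ± 1.24 CPM without T3 (SD, n = 6 each), and it was higher with T3 in 6 of 6 mice (limma adjusted p = 3.467e-14). CPM are the reads of a gene scaled to a common library size, here with the authors' TMM scaling, which adjusts that size for composition.

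GABA-A receptors are chloride channels opened by GABA, the main inhibitory transmitter of the adult cortex. Each channel is a ring of subunits, most often of the alpha, beta and gamma classes. The alpha subunit shapes how strongly and how long the channel answers GABA and which sedatives act on it, the beta subunit takes part in the GABA site and in export to the cell surface, and the gamma subunit is needed for the benzodiazepine site and for gathering receptors at synapses. In immature cortex GABA can depolarize neurons, and the subunit makeup shifts as the cortex matures.

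On GRCm38, 4 of the 8 genes form a block on chromosome 5. Gabrg1 (chr5:70751047-70842617), Gabra2 (chr5:70957597-71095849), Gabra4 (chr5:71569749-71658308) and Gabrb1 (chr5:71658113-72149037) follow each other there, the first 3 on the minus strand and Gabrb1 on the plus strand. Gabra4 and Gabrb1 start head to head, and 46 exon bases belong to both, 0.756% of the exons of Gabra4. The library kit does not mark strand, so reads over those bases cannot be assigned. Gabrg3 (chr7:56716465-57387188) and Gabra5 (chr7:57407672-57510059) lie 20.5 kb apart on the minus strand of chromosome 7. An antisense gene, Gm9962, covers 4.98% of the exons of Gabra5. Gabra3 (chrX:72432681-72656848, minus strand) and Gabrb2 (chr11:42419757-42629028, plus strand) share a chromosome with none of the other 7 genes.

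Upstream sequence is shown for the 4 genes that passed the threshold of the test over all genes, Gabra2, Gabra5 and Gabrg1, which were lower with T3, and Gabrg3, which was higher. Each sequence holds the 250 bases before the transcription start on the strand of the gene, 5′ to 3′, from RefSeq on GRCm38.p6. Capitals mark the GC box, GGGCGG or its reverse complement CCGCCC. The windows are chr5:71095850-71096099 for Gabra2, chr7:57510060-57510309 for Gabra5, chr5:70842618-70842867 for Gabrg1 and chr7:57387216-57387465 for Gabrg3, all on the minus strand.
Gabra2: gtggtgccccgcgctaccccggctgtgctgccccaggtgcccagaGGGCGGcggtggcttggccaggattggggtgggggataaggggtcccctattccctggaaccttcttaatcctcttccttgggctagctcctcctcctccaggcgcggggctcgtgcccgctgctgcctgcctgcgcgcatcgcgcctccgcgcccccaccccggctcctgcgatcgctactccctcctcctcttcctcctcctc
Gabra5: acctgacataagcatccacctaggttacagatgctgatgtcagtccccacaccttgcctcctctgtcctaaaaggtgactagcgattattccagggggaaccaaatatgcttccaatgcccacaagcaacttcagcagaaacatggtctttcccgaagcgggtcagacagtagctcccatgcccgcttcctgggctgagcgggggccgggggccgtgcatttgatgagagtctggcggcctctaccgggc
Gabrg1: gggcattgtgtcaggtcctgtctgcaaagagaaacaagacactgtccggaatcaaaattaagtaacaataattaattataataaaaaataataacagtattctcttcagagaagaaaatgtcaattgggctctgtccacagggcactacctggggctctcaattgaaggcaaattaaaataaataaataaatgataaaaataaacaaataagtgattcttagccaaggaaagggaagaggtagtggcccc
Gabrg3: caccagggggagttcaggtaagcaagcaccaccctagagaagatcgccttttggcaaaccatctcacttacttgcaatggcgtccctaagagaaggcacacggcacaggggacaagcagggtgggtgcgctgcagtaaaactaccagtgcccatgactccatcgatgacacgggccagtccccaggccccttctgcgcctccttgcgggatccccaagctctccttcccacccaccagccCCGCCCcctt
The 4 windows differ in base composition. G and C made up 70% of the Gabra2 window, 56.4% of the Gabra5 window, 35.6% of the Gabrg1 window and 60.4% of the Gabrg3 window, against a median of 52.4% over 32851 promoters of the same length. RefSeq lists 12 starts for the 8 genes. The GC box, on either strand, was in 4 of those 12 windows (Gabra2, Gabra4, Gabrb2 and Gabrg3) and in 32.7% of all promoters. AGGTCA, the hexamer that thyroid hormone receptors recognise, was searched on both strands and was in 0 of 12 windows and in 14.0% of all promoters. Its direct repeat with a spacer of 4 bases, which contains the hexamer, was in 0 of 12 windows and 0.0152% of all promoters. No match says only that these letters are not in these windows.

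Transcripts of 3 subunit genes fell with T3, those of 1 rose, and 4 did not pass the threshold (limma with the mouse as a block, Benjamini-Hochberg adjusted p under 0.05 over 13663 genes). Gabra2, Gabra5 and Gabrg1 fell, by 26.2%, 19.6% and 14.8% on the fitted scale, and Gabrg3 rose 1.20-fold. Among all 13663 tested genes 2.14% were called lower and 3.37% were called higher, or 5.52% in either direction. Because the genes were chosen with this contrast known, nothing is read from their count against that background. The log2 difference was below 0 for 7 of the 8 genes, with a median of -0.21. Over all tested genes the median was 0.0031, and 48.9% were below 0. For the same reason, nothing is read from the direction or the median of the 8 genes against these values. In none of the 8 genes did the T3 cultures as a group lie wholly outside the cultures without T3 (0 of 8), a separation seen in 0.622% of all tested genes with T3 lower and in 1.05% with T3 higher.

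**Figure D1:**
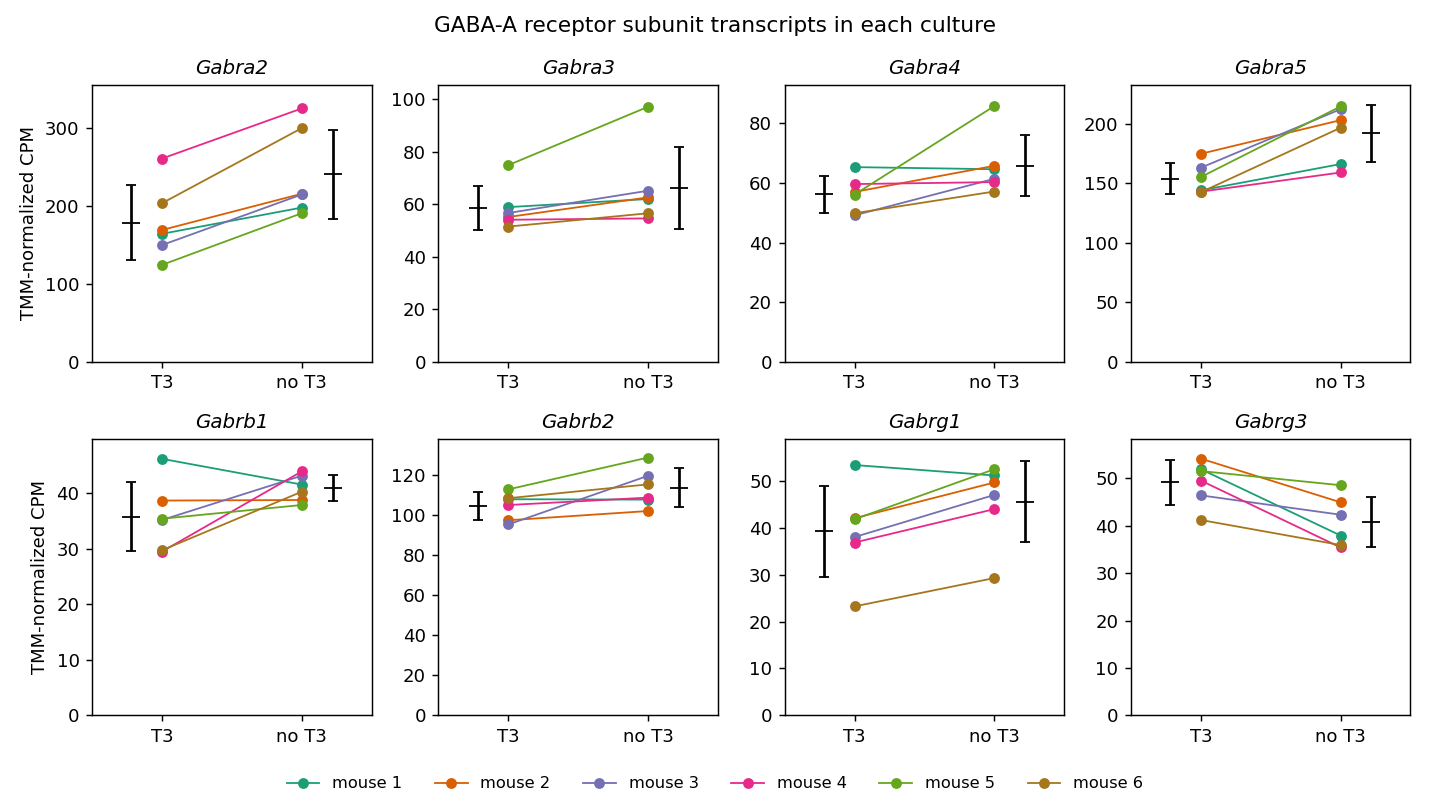
TMM-normalized CPM of the 8 subunit genes in each culture, T3 at the left and no T3 at the right of each panel, with a line joining the 2 cultures of a mouse and bars for the mean ± SD of 6 cultures. The lines of Gabra2 and Gabra5 run upward to the cultures without T3 in 6 of 6 mice, those of Gabrg3 run downward in 6 of 6, and the ranges of the groups overlap in every panel.

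Among the alpha subunit genes, Gabra2 encodes the alpha2 subunit, abundant in the young cortex and linked to the calming action of benzodiazepines. In mice 1 to 6 it had 164, 169, 149.5, 260.3, 124 and 203 CPM with T3, against 197.5, 215, 214, 324.5, 190.3 and 299 CPM without T3. The T3 culture was the lower one in each mouse, while mouse 4 was highest and mouse 5 lowest in both groups. The means were 178 ± 47.8 CPM with T3 and 240.2 ± 57.0 CPM without T3 (SD, n = 6 each), a log2 difference of -0.44 ± 0.054 (SE). The ratio of T3 to no T3 within a mouse ran from 0.652 in mouse 5 to 0.83 in mouse 1. Between 1262 and 2331 reads of a library lay behind these values. Gabra2 was called lower in 14 of 15 alternatives, leaving out any 1 mouse among them, and the call was lost only when the cultures of a mouse were not paired.

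Gabra5 encodes the alpha5 subunit, which forms mostly extrasynaptic receptors and is best known from the hippocampus. It had 144, 175, 163, 143, 155 and 142 CPM with T3, against 166, 203, 212, 159, 214.5 and 197 CPM without T3, in mice 1 to 6. The T3 culture was lower in 6 of 6 mice. The groups overlapped, as mouse 2 with T3 lay above mice 1 and 4 without T3, and mouse 3 with T3 lay above mouse 4 without T3. The means were 154 ± 13.2 CPM with T3 and 192 ± 23.7 CPM without T3, a log2 difference of -0.31 ± 0.054 (SE). Like Gabra2, it was called lower in 14 of 15 alternatives and lost the call only in the fit without pairing.

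Gabra3 and Gabra4 did not pass the threshold. Gabra3, the X-linked gene of the alpha3 subunit that is prominent before and around birth, had 58.8, 55.1, 56.6, 54.0, 74.8 and 51.4 CPM with T3, against 61.9, 62.6, 65.1, 54.6, 97.0 and 56.5 CPM without T3. Mouse 5 was the highest in both groups, and the T3 value was the lower one in 6 of 6 mice, by little in mouse 4. The log2 difference was -0.16 ± 0.059 (SE). Gabra4, whose alpha4 subunit joins extrasynaptic receptors, had 65.3, 57.0, 49.2, 59.6, 56.1 and 49.8 CPM with T3, against 64.6, 65.8, 61.4, 60.3, 85.8 and 57.1 CPM without T3. The T3 culture was the lower one in all mice but mouse 1 (5 of 6), and the log2 difference was -0.22 ± 0.071 (SE). Without mouse 1 it passed the threshold at a log2 difference of -0.27.

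Neither listed beta subunit gene passed the threshold. Gabrb2, the gene of the beta2 subunit that is common in mature cortical receptors, had 108, 97.4, 95.3, 105, 113 and 108 CPM with T3, against 108, 102, 119.6, 109, 129 and 115 CPM without T3. The T3 values ran close together and all lay within or just below the range of the others, and the log2 difference of -0.12 ± 0.055 (SE) was the one nearest to 0. Gabrb1, the gene of the beta1 subunit found in neurons and glia, had 46.2, 38.7, 35.2, 29.5, 35.4 and 29.8 CPM with T3, against 41.6, 38.8, 43.2, 44.0, 37.9 and 40.3 CPM without T3. The T3 values scattered on both sides of the others: mouse 1 was the highest culture of all, and mice 4 and 6 were the lowest. The log2 difference was -0.21 ± 0.082 (SE), and without mouse 1 Gabrb1 passed the threshold at -0.28.

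The listed gamma subunit genes moved in opposite directions. Gabrg3 encodes the gamma3 subunit, a rarer gamma subunit of brain receptors. It had 52.0, 54.2, 46.4, 49.6, 51.6 and 41.2 CPM with T3, against 38.0, 45.0, 42.4, 35.4, 48.6 and 36.0 CPM without T3. The T3 culture was higher in 6 of 6 mice, by the most in mice 1 and 4. The means were 49.2 ± 4.67 CPM with T3 and 40.9 ± 5.30 CPM without T3 (SD, n = 6 each), a log2 difference of 0.27 ± 0.067 (SE). Without mouse 4 the difference was 0.23 and no longer passed the threshold, and the call was also lost with DESeq2 and without pairing.

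Gabrg1 encodes the gamma1 subunit, which is also made by glial cells. It had 53.4, 42.0, 38.0, 36.9, 41.8 and 23.2 CPM with T3, against 51.2, 49.7, 47.0, 44.0, 52.5 and 29.3 CPM without T3. In 5 of 6 mice the T3 culture was lower, with mouse 1 the exception, and mouse 6 was far below the other mice in both groups. The means were 39.2 ± 9.77 CPM with T3 and 45.6 ± 8.56 CPM without T3, a log2 difference of -0.23 ± 0.066 (SE). Its call held in 6 of 15 alternatives. It was lost when mouse 2, 3, 4, 5 or 6 was left out, when plain CPM replaced TMM scaling, with DESeq2 or limma-voom, and without pairing.

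**Figure D2:**
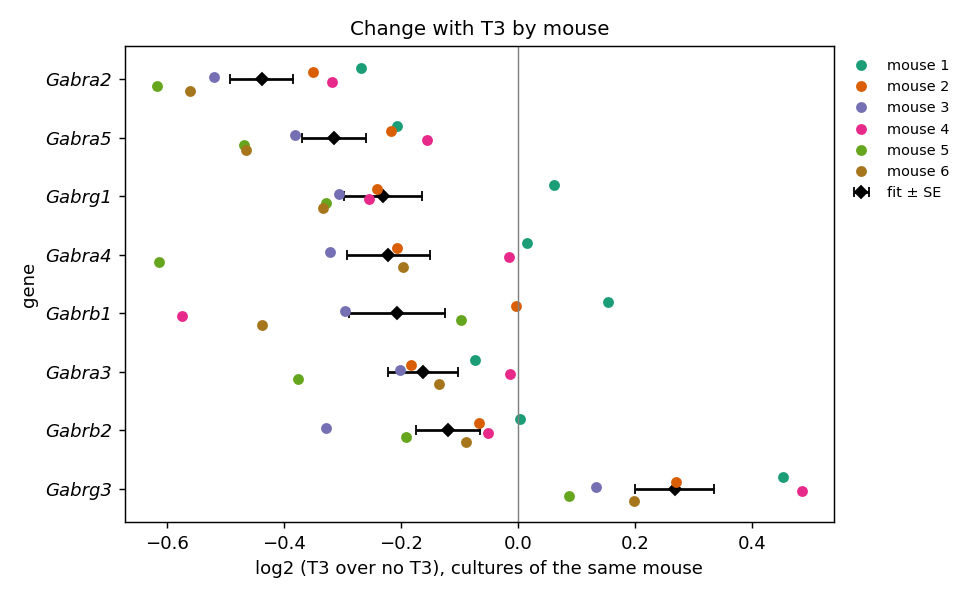
Log2 ratio of the culture with T3 over the culture without T3 of the same mouse (x axis) for the 8 subunit genes (y axis), with 1 coloured point per mouse and a black diamond for the fitted log2 difference ± SE. All 6 points of Gabra2 and Gabra5 lie below 0 and all 6 of Gabrg3 above it, and mouse 1 lies at the right of the points of Gabrg1, Gabra4 and Gabrb1.

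The mice differed in how the set moved. In mouse 1, 3 of the 8 genes were lower with T3 and the median ratio of T3 to no T3 was 1.01. In each of mice 2 to 6, 7 of the 8 genes were lower with T3, with median ratios between 0.784 in mouse 5 and 0.932 in mouse 4. Sequencing was deeper for T3 in each pair, by 1.03 times in mouse 1 and 1.15 to 1.67 times in the others. The median ratio over all tested genes was 0.996 to 1.02 in each mouse. The part of depth in the members' ratios was not tested.

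Summed over the 8 genes, a T3 culture held 692, 688, 633, 738, 652 and 649 CPM in mice 1 to 6, against 728.5, 782, 805, 830.5, 855 and 830.4 CPM without T3. The sum was lower with T3 in 6 of 6 mice, and the groups overlapped only through mouse 4 with T3 and mouse 1 without T3. The means were 675 ± 38.3 CPM with T3 and 805 ± 45.2 CPM without T3, which is 16.1% lower. Without Gabra2, the sum of the other 7 genes was 497 ± 33.2 CPM with T3 and 565 ± 57.4 CPM without T3, 12.1% lower, and it was lower in 6 of 6 mice. By class, and over the listed genes only, the alpha genes summed to 447 ± 38.3 CPM with T3 and 564 ± 44.0 CPM without T3. They were lower in 6 of 6 mice. The beta genes summed to 140.3 ± 9.02 CPM with T3 and 155 ± 9.34 CPM without T3 and were lower in 5 of 6 mice. The gamma genes, with 1 gene up and 1 down, summed to 88.4 ± 13.9 CPM with T3 and 86.5 ± 12.6 CPM without T3 and were lower in 3 of 6 mice. The 4 genes of the chromosome 5 block summed to 309.5 ± 45.7 CPM with T3 and 393 ± 46.7 CPM without T3 and were lower in 6 of 6 mice, with Gabra2 making up most of that sum. The other 3 genes of the block summed to 131 ± 20.5 CPM with T3 and 152 ± 16.0 CPM without T3 and were lower in 5 of 6 mice, with mouse 1 the exception. The chromosome 7 neighbours Gabra5 and Gabrg3 differed in opposite directions.

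Within that sum, the makeup of a culture shifted from Gabra2 toward Gabrg3 and Gabrb2. Gabra2 made up 26.2% ± 5.92 of the summed CPM with T3 and 29.8% ± 6.40 without T3 (SD, n = 6 each). The difference within a mouse was -3.53 ± 0.681 percentage points (SD over 6 mice) and was below 0 in 6 of 6. Gabrg3 made up 7.28% ± 0.631 with T3 and 5.08% ± 0.645 without T3, and its groups of shares did not overlap: the T3 cultures lay between 6.35% and 7.91%, those without T3 between 4.27% and 5.75%. The gain of Gabrg3 was nearly the same in every mouse, 2.20 ± 0.160 percentage points. Gabrb2, whose level differed least, took 15.5% with T3 and 14.1% without T3, higher in 6 of 6 mice. Gabra3 took 8.70% with T3 and 8.22% without T3, also higher in 6 of 6. Gabra5 took 22.8% with T3 and 23.8% without T3, lower in 5 of 6 mice. The shares of Gabra4, Gabrb1 and Gabrg1 differed by 0.110 to 0.213 percentage points on average and were each higher with T3 in 4 of 6 mice. A share rises when the other genes fall, and a long gene takes more reads. Per kilobase of exon, the Gabra2 share differed by -2.26 points and the Gabrg3 share by 1.01 points, in the same direction in 6 of 6 mice each.

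Of the CPM of the 2 listed gamma genes, Gabrg3 held 56.2% ± 4.72 with T3 and 47.6% ± 4.26 without T3. Within a mouse the share of Gabrg3 differed by 6.72 to 12.7 percentage points. Per kilobase of exon its mean share was 45.9% with T3 and 37.5% without T3, so Gabrg1 held more on average in both groups. Among the 4 listed alpha genes, Gabra2 held 39.5% with T3 and 42.4% without T3 and was lower in 6 of 6 mice. Gabra3 held 13.2% with T3 and 11.8% without T3 and was higher in 6 of 6 mice. Gabra5, although it fell, held 34.7% of the alpha CPM with T3 and 34.1% without T3. Per kilobase of exon, Gabra5 held the larger alpha share, 52.2% with T3 and 52.1% without T3. Gabra2 then held 23.4% with T3 and 25.5% without T3.

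Ratios of 2 genes within a culture, chosen after their values were seen, do not depend on the depth or the scaling of the library. They are not corrected for length and are read only between cultures. The ratio of Gabrg3 to its neighbour Gabra5 was 0.321 ± 0.0309 with T3 and 0.214 ± 0.0183 without T3 (SD, n = 6 each). The T3 cultures lay between 0.285 and 0.361 and those without T3 between 0.183 and 0.229, so the groups did not overlap. The ratio of Gabrg3 to Gabrg1 was 1.31 ± 0.263 with T3 and 0.918 ± 0.167 without T3, higher in 6 of 6 mice, with groups that overlapped through mice 1 and 3 with T3 and mouse 6 without T3. The ratio of Gabra2 to Gabra5 was 1.18 ± 0.383 with T3 and 1.29 ± 0.429 without T3. It was lower with T3 in 6 of 6 mice, although mice differed far more from each other than the cultures of a mouse did.

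**Figure D3:**
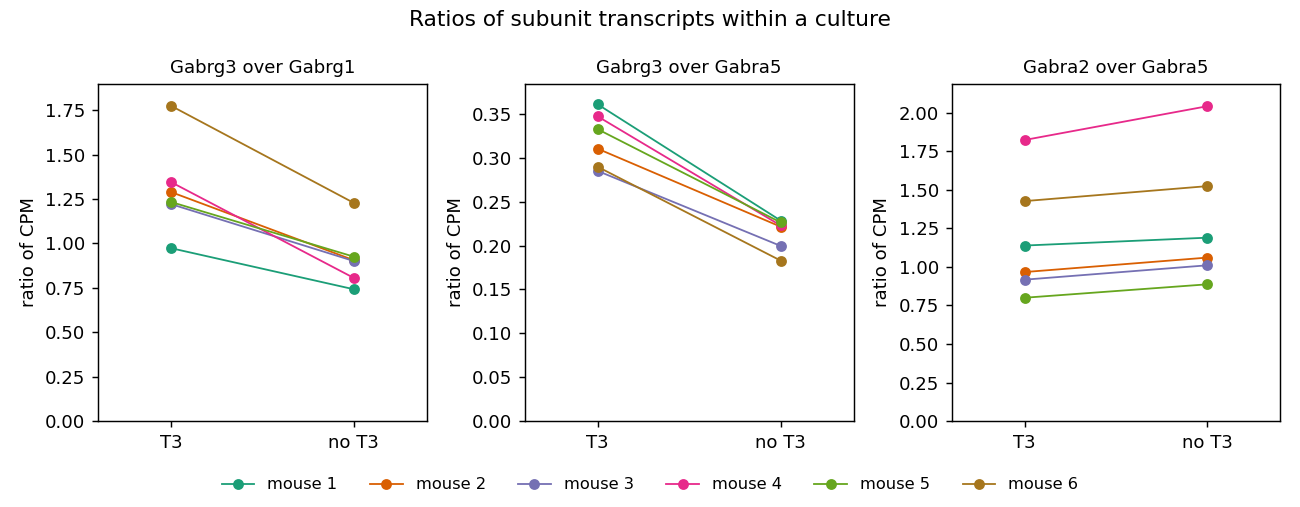
Ratio of the CPM of 2 subunit genes (y axis) in each culture, T3 at the left and no T3 at the right, with a line for each mouse. The Gabrg3 to Gabra5 ratio separates the groups, 0.285 to 0.361 with T3 and 0.183 to 0.229 without T3, while the Gabra2 to Gabra5 ratio orders the mice alike in both groups.

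Levels can be compared between genes only per length. Per kilobase of merged exons, Gabra5 was highest, at 51.7 ± 4.43 CPM per kb with T3 and 64.5 ± 7.98 CPM per kb without T3 (SD, n = 6 each). Gabra2 followed at 23.3 ± 6.25 with T3 and 31.4 ± 7.46 without T3. Gabrb2 had 16.4 ± 1.07 with T3 and 17.9 ± 1.51 without T3, close to Gabra3, at 14.9 ± 2.14 with T3 and 16.9 ± 3.97 without T3. Gabra4 had 9.24 ± 1.00 with T3 and 10.8 ± 1.69 without T3. The gamma genes were lower, Gabrg1 at 4.99 ± 1.24 with T3 and 5.79 ± 1.09 without T3, and Gabrg3 at 4.12 ± 0.392 with T3 and 3.43 ± 0.444 without T3. Gabrb1 was last, at 2.59 ± 0.450 with T3 and 2.96 ± 0.173 without T3. The order of the 8 means was the same in both groups. Within mice the order was not always kept in either group. Gabra2 lay above Gabrb2, and Gabrg1 above Gabrg3, in 5 of 6 cultures with T3 and in 6 of 6 without T3. Gabrb2 lay above Gabra3 in 5 of 6 cultures of each group. Gabrg3 lay above Gabrb1 in 6 of 6 cultures with T3 and in 5 of 6 without T3. With T3, the ranges of the neighbours Gabra2 and Gabrb2, Gabrb2 and Gabra3, and Gabrg1 and Gabrg3 overlapped. Without T3, those of Gabrb2 and Gabra3, Gabra3 and Gabra4, Gabrg1 and Gabrg3, and Gabrg3 and Gabrb1 overlapped. The merged exons include every annotated isoform, 2974 bases for Gabra5 and 13838 bases for Gabrb1, so a gene with long exons that are little used in these cells is set too low.

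**Figure D4:**
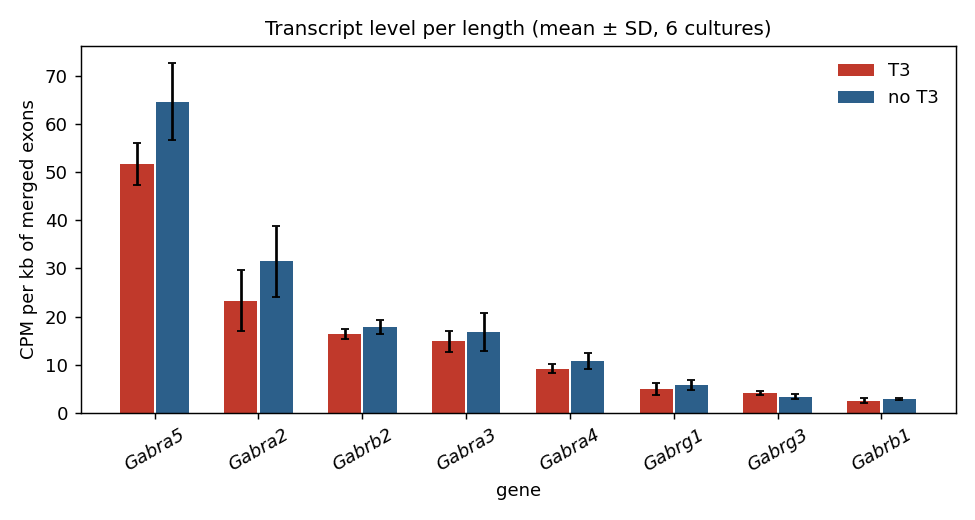
Level of the 8 subunit genes in CPM per kilobase of merged exons (y axis, from 0), T3 in red and no T3 in blue, as the mean of 6 cultures with the SD. Gabra5 stands highest at 51.7 with T3 and 64.5 without T3, Gabrb1 lowest at 2.59 with T3 and 2.96 without T3, and the order of the genes is the same in both groups.

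Beyond T3, the mice themselves differed in these genes. The coefficient of variation of Gabra2 over mice was 26.8% with T3 and 23.7% without T3, against 2.54% and 2.49% from counting alone. Its highest culture, that of mouse 4, had 2.10 times the lowest, that of mouse 5, with T3, and 1.71 times without T3. Gabrg1 varied by 24.9% with T3 and 18.8% without T3, lowest in mouse 6 in both groups, and its highest culture had 2.30 times the lowest with T3 and 1.79 times without T3. Gabra3 varied by 14.3% with T3 and 23.5% without T3, highest in mouse 5 in both. At the other end, Gabrb2 varied by 6.51% with T3 and 8.45% without T3. Gabrb1 without T3 varied by 5.86%, no more than the 5.95% that counting gives, whereas with T3 it varied by 17.4% against 5.57% from counting.

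Once each group was centred on its mean, the 8 genes did not all vary together over the 12 libraries, and Gabra2 stood apart. Over the 28 pairs of genes Pearson's r had a median of 0.167, ran from -0.70 to 0.78 and was above 0 in 17. These points share their libraries and mice, and the values are a description. Gabra2 had r below 0 with each of the other 7 genes, so all 17 pairs above 0 lay among those 7. Among those 7 genes the lowest r was -0.10, for Gabrb1 and Gabrb2, and Gabrg1 and Gabrg3 had r = 0.72. The closest pair was Gabra4 and Gabrg3 (r = 0.78), of which Gabrg3 rose with T3 and Gabra4 did not pass the threshold.

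The tested genes most like each subunit gene were found by the same centred correlation over 12 libraries. For Gabra5 they were Vxn (r = 0.948), Nap1l2 and Klhl2, and Vxn itself fell with T3, to 158 CPM with T3 against 204 CPM without T3 (log2 difference -0.36 ± 0.062 SE, limma adjusted p = 0.0008076). For Gabra3 they were Kcnip4 (r = 0.940), Cpne4 and Grin3a. Grin3a, an NMDA receptor subunit gene, fell to 67.4 CPM with T3 against 94.95 CPM without T3 (log2 difference -0.48 ± 0.068 SE, limma adjusted p = 0.0001215), whereas Kcnip4, a potassium channel partner, rose to 10.6 CPM with T3 against 7.43 CPM without T3 (limma adjusted p = 0.00782). For Gabra4 they were Ncam2 (r = 0.946), Gria3, an AMPA receptor subunit gene, and Selenof. For Gabrg3 they were Plppr4 (r = 0.959), Cyb561d1 and Ufl1. For Gabrg1 they were Miga1 (r = 0.958), Prune2 and Ift74. For Gabra2 they were Atp10d (r = 0.898), Rpl26 and Pdia5, for Gabrb1 Ttc26 (r = 0.903), Mysm1 and Stard9, and for Gabrb2 Pfn4 (r = 0.866), Nts and Tmf1. Of these 24 genes, the 3 with values above were the ones past the threshold, which 5.52% of all tested genes passed. The 24 were picked as the highest of many correlations, so their high r is no result of its own.

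Around the receptor, other genes of GABA and glycine signalling were called about as often as tested genes in general. Of 48 tested genes of 6 lists, 1 was higher and 2 were lower, a share near the 5.52% of all tested genes. Their median log2 difference was 0.0178. None of the 8 tested genes of GABA synthesis, vesicle loading, uptake and breakdown passed (0 with limma, edgeR, DESeq2 and limma-voom alike, and 3 at an unadjusted p under 0.05). Gad1, which makes GABA, had 304 ± 35.3 CPM with T3 and 344 ± 16.3 CPM without T3 and was lower in 5 of 6 mice (limma adjusted p = 0.0735), and it was called lower without mouse 6. Gad2, the other enzyme that makes GABA, named after its values were seen, had 132 CPM with T3 and 117 CPM without T3, a log2 difference of 0.17 ± 0.057 SE in the other direction (limma adjusted p = 0.08781). Slc32a1, which loads GABA into vesicles, had 63.3 ± 10.8 CPM with T3 and 52.8 ± 5.06 CPM without T3 and was higher in 5 of 6 mice (limma adjusted p = 0.0813), and it was called higher without mouse 1 or without mouse 2.

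None of the 10 genes of chloride transport passed either (0 with each of the 4 tools, 1 at an unadjusted p under 0.05). Wnk3, a kinase that regulates chloride cotransporters, had 68.0 ± 4.45 CPM with T3 and 78.0 ± 13.8 CPM without T3 (limma adjusted p = 0.128). Slc12a7, a potassium chloride cotransporter, had 11.7 ± 2.97 CPM with T3 and 13.8 ± 4.55 CPM without T3 (limma adjusted p = 0.397). The inhibitory postsynaptic scaffold gave 0 of 10 with each of the 4 tools and 2 at an unadjusted p under 0.05. Slitrk3, an adhesion protein of inhibitory synapses, had 61.2 ± 2.64 CPM with T3 and 69.1 ± 2.42 CPM without T3. It was lower in 6 of 6 mice and its groups did not overlap, but it missed the threshold (limma adjusted p = 0.0757). Mdga1, which restrains neuroligin binding, had 226 ± 58.6 CPM with T3 and 203 ± 52.8 CPM without T3 (limma adjusted p = 0.184), and it was called higher without mouse 1.

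The 3 genes that passed belong to trafficking and to other receptors. Of 14 genes of GABA-A receptor trafficking 1 fell: Hap1, a motor adaptor that returns receptors to the surface, had 49.0 ± 5.25 CPM with T3 and 65.3 ± 14.8 CPM without T3 (log2 difference -0.38 ± 0.082 SE, lower in 6 of 6 mice, limma adjusted p = 0.008337). Trak2, another motor adaptor, had 147 ± 7.23 CPM with T3 and 137 ± 10.8 CPM without T3 (limma adjusted p = 0.308). Of the 4 tested genes of the GABA-B receptor, which signals through G proteins, 1 rose. Gabbr2, its subunit that couples to the G protein, had 338, 405, 395, 411, 379.7 and 390.0 CPM with T3, against 309, 329, 325, 298.5, 286 and 295 CPM without T3. The groups did not overlap (log2 difference 0.33 ± 0.050 SE, limma adjusted p = 0.0002379). Gabbr1, its GABA-binding partner, had 567 ± 34.3 CPM with T3 and 577 ± 25.5 CPM without T3 (limma adjusted p = 0.827). Of the 2 tested glycine receptor genes, Glra2, the fetal alpha subunit, fell to 50.4 ± 5.72 CPM with T3 against 64.8 ± 14.4 CPM without T3 (log2 difference -0.34 ± 0.062 SE, lower in 6 of 6 mice, limma adjusted p = 0.001433). Glrb, the beta subunit, had 149.6 ± 9.24 CPM with T3 and 157 ± 15.6 CPM without T3 (limma adjusted p = 0.635).

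**Figure D5:**
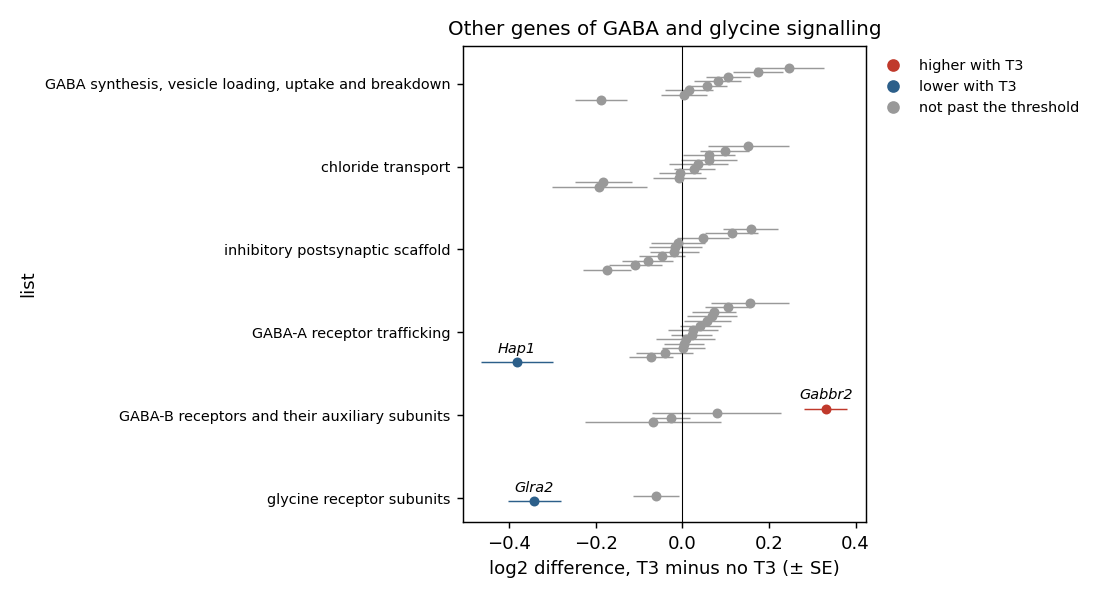
Log2 difference, T3 minus no T3, with its SE (x axis) for 48 genes of GABA and glycine signalling in 6 lists (y axis), with genes past the threshold coloured and named. Gabbr2 lies at 0.33, Hap1 at -0.38 and Glra2 at -0.34, and the other 45 genes are grey.

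Among glial markers, those of astrocytes and of the oligodendrocyte lineage had higher sums in the T3 culture of every mouse. Of the 8 tested astrocyte markers 4 rose, Gfap, Aqp4, Slc1a2 and Aldh1l1, and the summed level of the list was 1254 to 3275 CPM with T3 and 838 to 2799 CPM without T3, higher in 6 of 6 mice. Of the 10 oligodendrocyte lineage markers 3 rose, Olig1, Olig2 and Gpr17, with sums of 472 to 598.5 CPM with T3 and 364 to 535 CPM without T3, higher in 6 of 6 mice. Of the 10 pan-neuronal markers 2 rose, Rbfox3 and Nefl, with sums of 8053 to 9775 CPM with T3 and 8462 to 11250 CPM without T3, higher in 1 of 6 mice. Microglia markers summed to 2.56 to 5.15 CPM with T3 and 2.20 to 6.68 CPM without T3. The part of these markers in the values of the subunit genes was not tested. The libraries held 7460586 to 10837895 reads with T3 and 5272092 to 8136928 without T3. The library of mouse 4 without T3 had 52 genes over 4 times their level in any other library, heart muscle genes such as Myh7 among them, which took 0.363% of its reads, and 0 of the 8 subunit genes were among them. Without mouse 4, Gabra2 and Gabra5 were still called lower, while the calls of Gabrg1 and Gabrg3 were lost.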

How the data were processed

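Total RNA of 12 cultures was sequenced as single 75-base reads on a Genome Analyzer IIx from TruSeq version 2 libraries, which do not mark strand, per the labels' protocols. The submitters' processing notes name the build GRCm38 and the tools Bowtie, TopHat, HTSeq, edgeR, CASAVA and FastQC, with tool versions not given in the sources used here. What the authors deposited is a normalized signal, counts per gene scaled by TMM per the file headers, and they sum to 969044 to 1044783 per library, so they are read as CPM. They were whole multiples of 1 read (0.0911 to 0.186 CPM) for 100% of values within 0.01 reads, which gave the reads behind each value.

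Here log2(value + 0.5) was fitted with limma 3.58.1 in R 4.3.3, with the mouse as a block, robust settings and a trend of variance on mean level, over 13663 genes. The filterByExpr rule of edgeR 4.0.16 removed 1138 low genes, and all 8 subunit genes were kept. Benjamini-Hochberg adjustment of the two-sided p-values ran over all tested genes, with a threshold of 0.05. The pseudocount pulls fold changes of low genes toward 0. The fit was tested on simulated data. Each fetus gave both cultures, per the series' design text. The deviations of the pairs from their group means correlated between 0.237 and 0.638. P-values measure the spread of the T3 minus no T3 difference over these 6 fetuses, which includes the spread between cultures. Differences in level between fetuses are taken out by the block. Libraries of the same group all differed by more than sampling noise (chi-square per degree of freedom 2.41 to 18.1).

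The subunit genes and the lists were chosen with earlier results of these data known. Named were the 8 subunit genes, the 3 genes most like each, and Hr. Of each list of other GABA and glycine genes, all past the threshold and the 2 with the smallest p were named. Klf9, a second T3 target, had 65.4 ± 6.60 CPM with T3 and 23.7 ± 4.71 CPM without T3 (SD, n = 6 each). Sums and shares cover the 8 listed genes, and other subunit genes are not reported here. Alternatives were other pseudocounts, no filter, other scalings, edgeR, DESeq2 1.42.0 and limma-voom on the recovered reads, no block, and each mouse left out. Coordinates and exon lengths come from GENCODE M21.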

Additional observations from a re-analysis of the deposited data

Results flagged for a closer look

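In 5 of 44 groups of 6 cultures examined, the highest or lowest culture lay apart from the other 5 by more than Dixon's 95% limit, which chance exceeds in about 1 group in 20. Mouse 5 accounted for 4 of them. Gabra3 had 74.8 CPM in mouse 5 with T3, where the next culture had 58.8 CPM, and 97.0 CPM in mouse 5 without T3, where the next had 65.1 CPM. Gabra4 had 85.8 CPM in mouse 5 without T3, and the next culture had 65.8 CPM. Glra2 had 92.0 CPM in mouse 5 without T3, and the next had 66.2 CPM. Gabrg1 had 29.3 CPM in mouse 6 without T3, below the nearest culture at 44.0 CPM.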

How the results depend on the processing

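Over all genes, 461 were higher and 293 lower with T3. Without the replicate block that pairs the cultures of a mouse, 125 were higher and 53 lower. Leaving out 1 mouse gave 304 to 530 higher and 154 to 330 lower, and edgeR on the recovered reads gave 465 higher and 317 lower, and DESeq2 312 higher and 219 lower. Of the 8 subunit genes, 1 was higher and 3 lower with the block, and 0 were higher and 0 lower without it (limma, 5 of 8 at an unadjusted p under 0.05). With DESeq2, 0 were higher and 2 lower (7 of 8 at an unadjusted p under 0.05). With a mouse left out, 0 to 1 were higher and 2 to 5 lower, the 0 without mouse 4 and the 5 without mouse 1. Of the other genes of GABA and glycine signalling 1 was higher and 2 lower. There were 3 higher without mouse 1, 2 higher without mouse 2 and 3 lower without mouse 6. Without the replicate block 0 were lower, as Hap1 and Glra2 lost their calls. As shares per kilobase, Gabra2 differed by -2.26 and Gabrg3 by 1.01 percentage points. The cause of these shifts was not tested. Of 300 values of single genes under the alternatives, 278 kept direction and side of the threshold, 16 kept direction and lost the call, 6 gained a call and 0 reversed. The scalings tried moved the median log2 difference of all genes by less than 0.01. Gabrg3 had 191 to 566 reads and Gabrg1 228 to 459, the fewest among the genes called, and intervals from reads cover counting error only.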

Other observations

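Marker genes of the neurons that make and receive GABA did not move as a block. Of 10 inhibitory neuron markers, Sst, a peptide of one interneuron class, fell to 157 CPM with T3 against 192 CPM without T3 (log2 difference -0.31 ± 0.079 SE, limma adjusted p = 0.03194), and Npy, another interneuron peptide, rose to 29.6 CPM with T3 against 23.5 CPM without T3 (0.34 ± 0.090 SE, limma adjusted p = 0.02683). Their sum was 730.1 to 1035 CPM with T3 and 878 to 964 CPM without T3, higher in 2 of 6 mice. Among the excitatory neuron markers, Camk2a and Emx1 rose, and Slc17a6 and Fezf2 fell. Camk2a, a synaptic kinase gene, had 562 CPM with T3 and 492 CPM without T3 (limma adjusted p = 0.01866), and Fezf2, a factor of deep-layer projection neurons, had 20.3 CPM with T3 and 25.1 CPM without T3 (limma adjusted p = 0.0317).

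Of the markers of other cells, 0 of 7 neural progenitor markers passed (2 at an unadjusted p under 0.05, 0 with edgeR, DESeq2 and limma-voom), with sums of 945 to 1512 CPM with T3 and 784 to 1407 CPM without T3. Of 7 mural cell and fibroblast markers Dcn was lower with T3, with sums of 43.5 to 159 CPM with T3 and 76.0 to 439.6 CPM without T3. Endothelial markers gave 0 of 3 (0 at an unadjusted p under 0.05 and with each other tool), with sums of 6.39 to 30.7 CPM with T3 and 5.86 to 32.1 CPM without T3. Heart muscle markers summed to 3.07 to 5.81 CPM with T3 and 3.50 to 1213 CPM without T3, the highest in mouse 4.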
